A study of Homo sapiens with 12 samples.

Results

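The somatostatin receptor family consists of the genes SSTR1, SSTR2, SSTR3, SSTR4 and SSTR5, which are 5 of the 55765 gene symbols counted here. The family was chosen by symbol and because SSTR2 rose after co-treatment, so the co-treatment values of its members are given as a description, with no test. The receptors are G protein-coupled receptors on the cell surface that bind the peptides somatostatin and cortistatin. Through inhibitory G proteins they lower cyclic AMP, open potassium channels and close calcium channels, and they dampen hormone secretion and neuronal firing. SSTR2 is the main binding site of the somatostatin analogue octreotide and is used as an imaging target in neuroendocrine tumours and neuroblastoma.

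RNA was sequenced from 12 cultures of SH-SY5Y, a human neuroblastoma cell line that stops dividing and grows neurites when given all-trans retinoic acid (ATRA), in 2 experiments of 6 libraries each. In the co-treatment experiment, 3 cultures were differentiated with ATRA for 7 days with H2O2 present throughout, and 3 control cultures received ATRA only. The pre-treatment experiment held 3 cultures that met H2O2 for 72 h and were then differentiated with ATRA over 7 days, and 3 control cultures that were differentiated without that exposure. Every culture, controls included, therefore received ATRA, undifferentiated cells were not analysed here, and the H2O2 dose is 10 mM in the series' description and 10 μM in the study's methods. No source used here says how the replicate cultures were made independent, so p-values measure only the spread between these libraries, which may be technical. All cultures come from 1 cell line.

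The depth of the libraries ran from 27576276 to 98287391 reads on genes, 686117187 in all. Control replicate 3 of the pre-treatment experiment stood apart from the other controls of its group: its chi-square per degree of freedom was 545 against replicate 1 and 499 against replicate 2, whereas replicates 1 and 2 differed by 40.1. Small structured RNAs took 17.59% of its counts, against 1.63% and 2.91% in the other controls and 13.3% to 15.09% in the H2O2 libraries of that experiment. For each read counted on a gene, 0.2 reads fell outside genes in that library, 0.8 and 0.83 in the other controls and 0.343 to 0.462 in the H2O2 libraries. In the co-treatment libraries these measures were 5.08% to 13.07% and 0.263 to 0.429 reads. Control replicates 1 and 2 thus had the smallest shares of small structured RNAs and the most reads outside genes of the series. Control replicate 3 had the largest share and the fewest such reads. Pre-treatment results are therefore given over all 6 libraries and over 5 libraries without control replicate 3. Of the noradrenergic neuroblastoma markers, PHOX2A, HAND2, DBH and CHGA were abundant in these cells, but TH, which encodes the rate-limiting enzyme of catecholamine synthesis, had at most 0.263 CPM (the count scaled to a common library size) in any library.

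SSTR2 lies on chromosome 17, at 71161149 to 71172772 on the plus strand of hg19, with SSTR1 on chromosome 14 (38677109 to 38682272, plus strand) and SSTR3 on chromosome 22 (37600277 to 37608517, minus strand). SSTR4 is on chromosome 20 (23015949 to 23019874, plus strand) and SSTR5 on chromosome 16 (1122747 to 1131454, plus strand). The span of an unnamed long non-coding RNA gene on the same strand covers all 11624 bases of SSTR2, introns included, in the annotation used here. The overlap of their exons was not computed, so reads of the 2 genes may not be separable by position alone. SSTR2 was the only receptor that reached more than 13 counts in any library, and its promoter is shown for that reason. The 250 bases before its annotated start, credited to RefSeq, lie at chr17:73164760-73165009 on the plus strand of GRCh38.p14, and the same letters occur exactly once on chromosome 17 of hg19, at chr17:71160899-71161148. Capitals mark an SP1 site (GGGCGG) and the core of an antioxidant response element (TGACNNNGC), in 5′ to 3′ order:
SSTR2 promoter: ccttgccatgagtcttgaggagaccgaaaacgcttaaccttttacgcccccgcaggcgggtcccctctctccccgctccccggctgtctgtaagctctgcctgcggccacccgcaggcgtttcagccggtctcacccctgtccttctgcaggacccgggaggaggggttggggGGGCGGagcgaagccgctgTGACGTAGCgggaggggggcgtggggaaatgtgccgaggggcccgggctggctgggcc

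The SP1 match began 77 bases before the start and the antioxidant response element core 58 bases before it. On both strands and in windows of the same length, GGGCGG was present in 42.6% of 35116 RefSeq promoters and TGACNNNGC in 10.9%. Of the other 4 receptors, none had the TGACNNNGC core in its window, and the SP1 letters were in those of SSTR3 and SSTR4. The retinoic acid receptor half-site AGGTCA (12.1% of promoters), the AP-1 site TGANTCA (6.6%), the cyclic AMP response element TGACGTCA (1.6%) and the TATA box TATAAA (10.7%) were absent from the SSTR2 window. Its GC content was 69.2%, against a median of 58.0% over all promoters. These matches describe the letters and not the binding of any factor.

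SSTR1, SSTR4 and SSTR5 had 0 counts in each of the 12 libraries. At the depth of these libraries, a count of 0 allows between 0.0311 and 0.107 CPM, taking 3 counts as the limit, and covers counting error only. SSTR5-AS1, the antisense gene that overlaps SSTR5, had 1 count, in H2O2 replicate 1 of the pre-treatment experiment. These receptor genes were thus not detectable at this depth, under H2O2 as well as in controls. SSTR4 lies wholly, and SSTR5 in part (5985 bases), within the span of another annotated gene. These spans include introns, and the overlap of exons was not computed. How reads shared by 2 genes were counted is not given in the sources used here, so for these genes a count of 0 limits the counted reads only. In these bulk samples, fewer cells that express a gene and less RNA per cell cannot be told apart.

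SSTR2 had 114, 72 and 88 counts in co-treatment control replicates 1 to 3, and 242, 780 and 802 counts in the H2O2 replicates. Scaled with TMM factors over the 12 libraries, the controls had 2.32, 1.54 and 2.57 CPM and the H2O2 cultures 8.60, 12.5 and 15.6 CPM. The lowest H2O2 library was 3.34 times the highest control library, so the groups did not overlap. How many of all genes had no overlap in co-treatment was not counted. The mean rose from 2.14 ± 0.541 CPM (SD, n = 3) to 12.2 ± 3.50 CPM (SD, n = 3), which is 5.71 times the control mean. The log2FC of the quasi-likelihood fit was 2.53 (standard error 0.26) and stayed between 2.31 and 2.72 when each library was left out. It is the value the family was chosen from, and 0.598% of the 22089 genes tested in co-treatment were called in either direction (FDR below 0.05 and absolute log2FC above 0.6).

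The choice of the family named only the co-treatment rise, but it was made with earlier results of these data known. In the pre-treatment experiment, SSTR2 had 195, 56 and 226 counts in control replicates 1 to 3 and 1076, 592 and 867 in the H2O2 replicates. These were 3.54, 1.23 and 3.44 CPM in controls and 11.1, 8.69 and 10.9 CPM after H2O2. Again no H2O2 library overlapped with a control library, and the lowest was 2.46 times the highest control. The share of all genes that separated in this way was not counted. The mean went from 2.74 ± 1.31 CPM (SD, n = 3) to 10.2 ± 1.34 CPM (SD, n = 3).

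**Figure D1:**
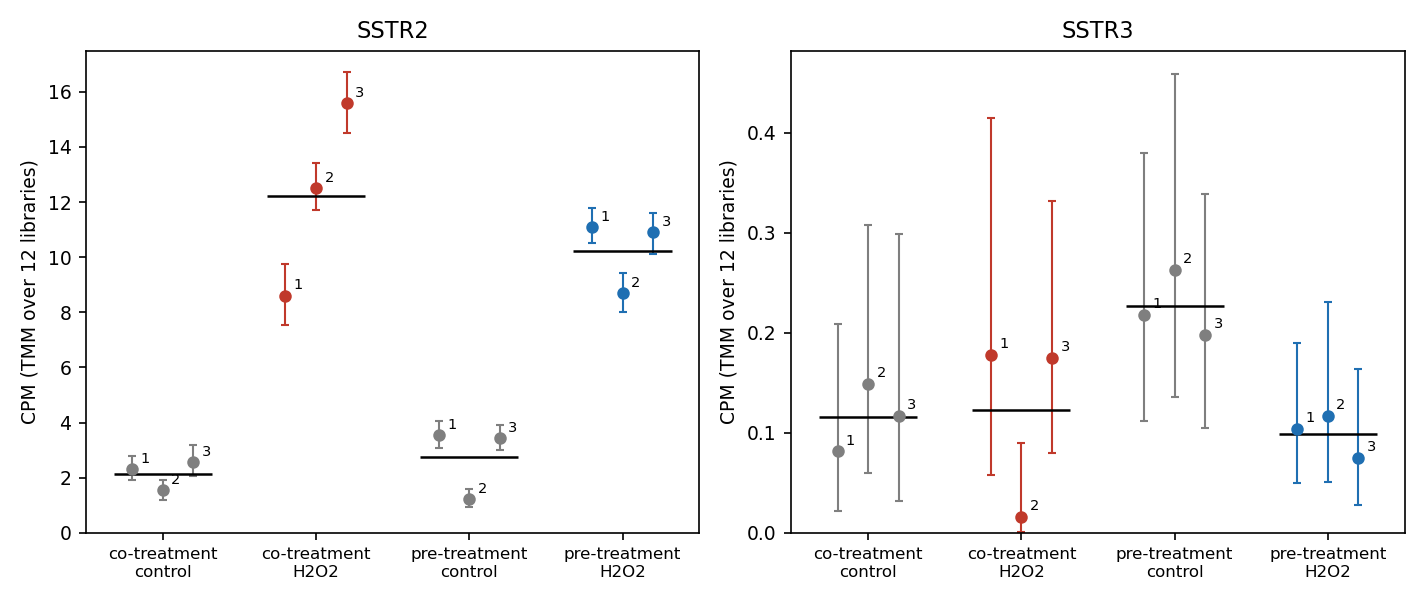
CPM of SSTR2 (left) and SSTR3 (right) in every library, scaled with TMM factors over the 12 libraries, with the 95% Poisson interval of the count as bars, the replicate number beside each point and the group mean as a line. All 6 H2O2 libraries have more SSTR2 than all 6 controls, with 8.60 CPM as the lowest H2O2 value and 3.54 CPM as the highest control value. The co-treatment rise of SSTR2 is what the family was chosen from. SSTR3 stays below 0.3 CPM and its intervals are wide.

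Over all 6 pre-treatment libraries, SSTR2 had a log2FC of 1.92 (standard error 0.39). Its unadjusted p from edgeR's quasi-likelihood test was 0.00111, which ranked 87 of 24743 genes, and its adjusted p of 0.312 did not pass the FDR threshold. In that comparison only 6 genes, 0.0242% of those tested, were called (FDR below 0.05 and absolute log2FC above 1), while 2776 had an unadjusted p under 0.05. SSTR2 was called on the same 6 libraries by edgeR's exact test (adjusted p = 0.00366) and by DESeq2 (adjusted p = 5.87e-04), and not by limma-voom (adjusted p = 0.306). An exact two-sided permutation test of its log2 CPM gave p = 0.100, the smallest that 3 against 3 libraries allow.

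Without control replicate 3, the log2FC of SSTR2 was 2.16 (standard error 0.40) and its adjusted p = 0.00722 in edgeR's quasi-likelihood test, so that it was called, in a comparison in which 11.2% of 26350 genes were. The library left out had 3.44 CPM of SSTR2, close to the 3.54 CPM of control replicate 1 and below every H2O2 library. The call was kept in every fit that left out 1 more library. The log2FC ranged from 1.61 without control replicate 2, which had the least SSTR2, to 3.15 without control replicate 1, and both of these fits rest on 1 control library, which is assumed to vary like the others. The share of small structured RNAs and the reads outside genes differed between these 2 controls and the H2O2 libraries, as given above, and their part in the result was not tested.

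**Figure D2:**
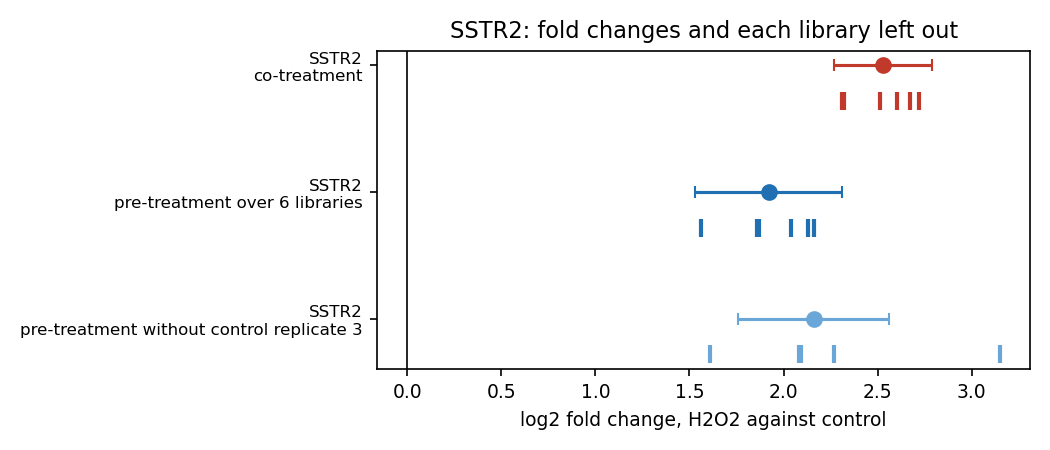
log2FC of SSTR2, H2O2 against control, in each comparison. Large points with bars show the fitted value and its standard error, and the ticks under them the values with each library left out in turn. All values are above 1.5, with the widest spread (1.61 to 3.15) in the pre-treatment comparison without control replicate 3.

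In the order of the 12 libraries by SSTR2 level, the 6 controls came first, from 1.23 to 3.54 CPM, and the 6 H2O2 libraries followed, from 8.60 to 15.6 CPM. The lowest H2O2 library of either experiment was 2.43 times the highest control of either. The co-treatment part of this order is what the family was chosen from. The share of all genes ordered in this way was not counted. Control libraries of both experiments lay within 1 range, with 2.14 ± 0.541 CPM (SD, n = 3) for co-treatment and 2.74 ± 1.31 CPM (SD, n = 3) for pre-treatment, a difference smaller than the SD of the pre-treatment controls and larger than that of the co-treatment controls. The H2O2 groups, at 12.2 ± 3.50 and 10.2 ± 1.34 CPM, differed by less than the SD of the co-treatment libraries and by more than that of the pre-treatment libraries. Per kilobase of exon, SSTR2 had 0.273 CPM in co-treatment controls and 1.56 with H2O2, and 0.348 CPM in pre-treatment controls and 1.30 after H2O2. Among 25998 genes with a known length and at least 1 count, its mean level per kilobase was above 43.4% of genes in co-treatment controls and above 59.1% with H2O2. The same shares were 42.1% and 57.0% in the pre-treatment experiment.

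SSTR3, a receptor known for its place in the primary cilium of neurons, was near the limit of detection. It had 4, 7 and 4 counts in co-treatment controls and 5, 1 and 9 with H2O2, a sum of 15 in each group. The levels were 0.0815, 0.149 and 0.117 CPM in controls and 0.178, 0.0161 and 0.175 CPM with H2O2. H2O2 replicate 2 was the lowest library of the series, the other H2O2 replicates were above all controls, and SSTR3 did not pass the filter for low counts in this experiment. In the pre-treatment experiment it had 12, 12 and 13 counts in controls (0.218, 0.263 and 0.198 CPM) and 10, 8 and 6 after H2O2 (0.104, 0.117 and 0.0751 CPM). All H2O2 libraries were below all controls, but the 95% Poisson intervals of the counts overlapped, for example 0.105 to 0.339 CPM in control replicate 3 and 0.0507 to 0.231 CPM in H2O2 replicate 2. All 3 H2O2 libraries were under the 0.12 CPM that the filter for low counts asks for, so SSTR3 passed it only through the controls, in which it was higher, and no fold change or test is given for it.

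SSTR2 exceeded SSTR3 per kilobase of exon in every library. The ratio of their levels was 17.0, 6.12 and 13.1 in co-treatment controls and 9.67, 2.78 and 10.4 in pre-treatment controls. With H2O2 it was 28.8, 464 and 53.1 in co-treatment and 64.1, 44.1 and 86.0 in pre-treatment. The ratio of 464 rests on the single SSTR3 count of co-treatment H2O2 replicate 2. In counts, SSTR2 gave 82.4% (95% Wilson interval 71.6% to 89.6%, pre-treatment control replicate 2) to 99.9% (co-treatment H2O2 replicate 2) of all receptor reads.

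The ligands were scarce. SST, which encodes somatostatin, had 0 counts in all 12 libraries. CORT, which encodes cortistatin, had 22, 32 and 7 counts in co-treatment controls, 12, 48 and 41 with H2O2, 42, 26 and 14 in pre-treatment controls and 41, 39 and 43 after H2O2. Its groups overlapped in both experiments. Its log2FC was 0.58 (standard error 0.50) in co-treatment and 0.03 (standard error 0.52) in pre-treatment over 6 libraries, with adjusted p-values of 0.849 and 0.985 in edgeR's quasi-likelihood test. CORT shares sequence with a readthrough gene, so its counts are uncertain. The processing enzymes CPE and FURIN were expressed at 29.3 and 5.15 CPM per kilobase on average, and neither was called in any comparison.

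Around SSTR2 on chromosome 17, the nearest annotated genes with counts were not called. POLR3KP2, a pseudogene 1.7 kb away, had 17 counts in all and was not tested. COG1, a subunit gene of a Golgi tethering complex 16.4 kb away, had 53.1 ± 3.30 CPM (SD, n = 3) in co-treatment controls and 56.9 ± 4.32 CPM (SD, n = 3) with H2O2. Its log2FC was 0.10 in co-treatment, -0.21 in pre-treatment over 6 libraries and -0.28 without control replicate 3. FAM104A (30.7 kb away) had -0.11, 0.02 and 0.22, and SLC39A11, a zinc transporter gene 72.3 kb away, had 0.17, 0.24 and 0.39. None of these 3 genes was called in any comparison. Beside SSTR3, C1QTNF6 was not called in any comparison, RAC2 was not called in either pre-treatment comparison and IL2RB was not called in the 1 comparison that tested it (pre-treatment without control replicate 3). CYTH4 had 24 counts in all and was not tested.

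The 9 lists compared next held 73 genes in total. They covered ligands and signalling partners of the receptors, and also 13 related peptide receptors, 9 cyclic AMP-induced genes and 7 retinoic acid-induced genes. In co-treatment, 55 of them were tested and 0 were called by edgeR's quasi-likelihood test, against only 0.598% of all genes tested. Of the 55, 4 (7.27%) had an unadjusted p under 0.05, against 8.15% of all genes tested, and the lowest adjusted p was 0.300. The exact test, DESeq2 and limma-voom also called 0 of them, and 307, 307 and 138 of all genes. Their median log2FC was -0.05, against 0.00 for all genes tested. In pre-treatment over 6 libraries, 56 were tested and 0 were called, against only 0.0242% of all genes tested. Of the 56, 17 (30.4%) had an unadjusted p under 0.05, against 11.2% of all genes tested. The exact test called 1 of them and 231 of all genes, DESeq2 2 and 501, and limma-voom 0 and 0. Their median log2FC was -0.32, against -0.01 for all genes. Without control replicate 3, 57 were tested and 8, or 14%, were called, beside the background of 11.2%, and 22 (38.6%) had an unadjusted p under 0.05, against 40.5% of all genes. All 8 were lower after H2O2, in the comparison in which 784 genes were called higher and 2168 lower.

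The signal of the receptors passes through inhibitory G protein alpha subunits. All 5 of them were tested, and GNAO1, the subunit abundant in neurons, was the only one called without control replicate 3, with a log2FC of -2.11 (standard error 0.21, adjusted p = 9.85e-04 in edgeR's quasi-likelihood test). It had 57.2 and 86.6 CPM in control replicates 1 and 2, 12.4 CPM in control replicate 3 and 12.9 to 18.4 CPM after H2O2. Control replicate 3 was thus below the lowest H2O2 library. The scaffold genes SHANK1 and SHANK2, whose proteins bind the tail of SSTR2, were the 2 called of 11 arrestin, receptor kinase and scaffold genes. SHANK1 had 21.4, 42.3 and 5.58 CPM in control replicates 1 to 3 and 5.54 to 9.43 CPM after H2O2, with a log2FC of -2.03 without control replicate 3 and -1.60 with it. SHANK2 had 42.8, 62.9 and 10.9 CPM in controls and 11.1 to 14.7 CPM after H2O2, with a log2FC of -1.91 and -1.50.

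Of 7 potassium and calcium channel genes tested, CACNA1C, an L-type calcium channel gene, was called without control replicate 3 (log2FC -1.30), and its 7.37 CPM in control replicate 3 was below all H2O2 libraries. The other called genes were OPRD1 (-1.18), the delta opioid receptor, of 5 related peptide receptors tested, PER1 (-1.99), a clock gene, of 8 cyclic AMP-induced genes, and CYP26B1 (-2.98), which degrades retinoic acid, and RET (-1.17), a receptor tyrosine kinase, of 7 retinoic acid-induced genes. In all 8 genes control replicate 3 was below control replicates 1 and 2, and in 4 it was at or below the highest H2O2 library. None of the 8 was called by edgeR's quasi-likelihood test over all 6 libraries, with adjusted p-values from 0.320 (PER1) to 0.512 (CACNA1C). Without control replicate 2 as well, only GNAO1, SHANK1, SHANK2 and PER1 stayed called, and the log2FC of CACNA1C was -0.77 and that of OPRD1 -0.37. OPRD1 also lost the call without H2O2 replicate 1 or 2, CYP26B1 without control replicate 1 or H2O2 replicate 1, and RET without control replicate 1 or H2O2 replicate 3. Their log2FC ranged from -1.68 to -0.37, from -3.56 to -2.47 and from -1.40 to -0.91. With every one of these 5 libraries kept, OPRD1 lost the call with limma-voom (-1.03, adjusted p = 0.0649), CYP26B1 with DESeq2 (adjusted p = 0.0585) and with robust estimation (-2.98, adjusted p = 0.181), and RET with the replicate number as a block (-0.88). No adenylyl cyclase (6 tested in co-treatment and 7 in pre-treatment), no phosphatase of 4 and no ligand-processing gene of 3 was called in any comparison. The shares of all genes called were 0.598% in co-treatment, 0.0242% over 6 pre-treatment libraries and 11.2% without control replicate 3. ADCY1, the most abundant cyclase per kilobase, had a log2FC of -0.91 without control replicate 3 (adjusted p = 0.0145), short of the absolute log2FC of 1, and PTPN11, the phosphatase SHP2, had 0.12 (adjusted p = 0.487).

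**Figure D3:**
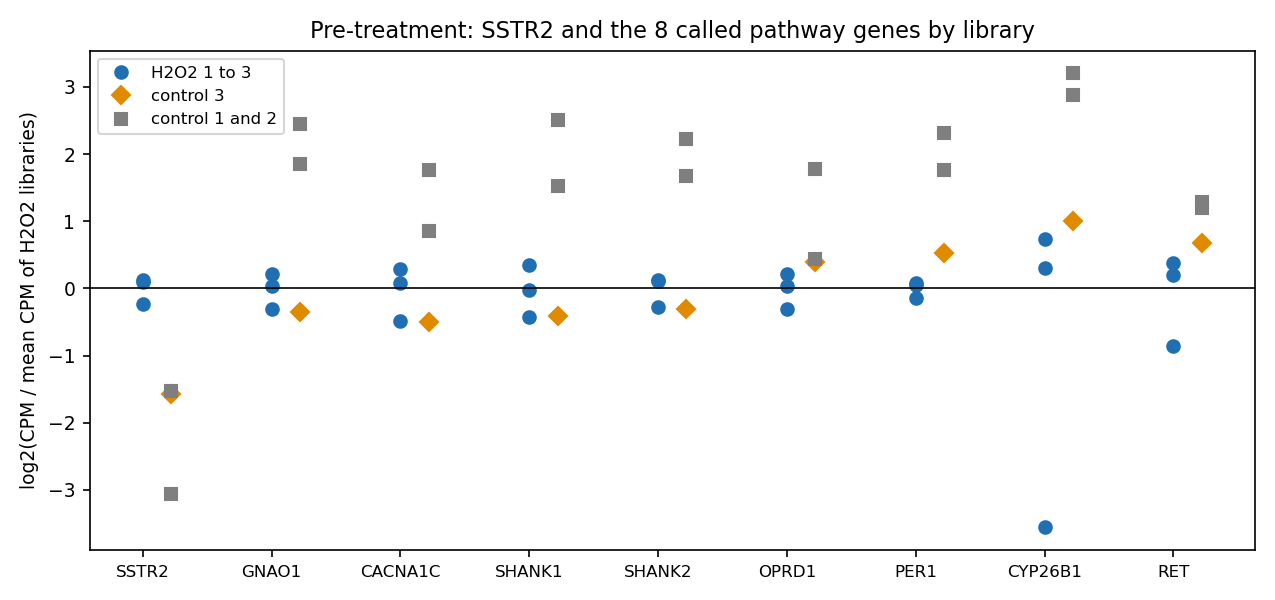
Pre-treatment CPM of SSTR2 and of the 8 list genes called without control replicate 3, as log2 of the ratio to the mean of the H2O2 libraries. Circles show H2O2 libraries, squares control replicates 1 and 2 and diamonds control replicate 3. In SSTR2 all 3 controls lie below the H2O2 libraries, and in GNAO1, CACNA1C, SHANK1 and SHANK2 control replicate 3 lies within or below the H2O2 libraries while the other controls lie above them.

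The genes whose log2 CPM followed SSTR2 most closely over the 12 libraries, among 24406 genes, were HAS2 (Pearson r = 0.968), KITLG (0.963), RP11-54O7.3 (0.951), AP000479.1 (0.95) and LINC00693 (0.945). These correlations describe 12 libraries in 4 groups of the same treatment contrast, and SSTR2 was chosen for its rise in one of them. HAS2, a hyaluronan synthase, had 0.107 to 0.163 CPM in co-treatment controls and 0.675 to 0.991 CPM with H2O2. In pre-treatment it had 0.0219 to 0.168 CPM in controls and 0.889 to 0.974 CPM after H2O2. All its controls were under the 0.181 CPM of the low-count filter over 12 libraries. HAS2 thus passed that filter only through the H2O2 libraries, in which it was higher. KITLG, the ligand of the KIT receptor, had 24.2 to 28.2 and 59.9 to 77.2 CPM in co-treatment, and 14.7 to 33.0 and 45.7 to 57.4 CPM in pre-treatment. In each of the 5 genes all H2O2 libraries were above all controls in both experiments, which choosing them for likeness to SSTR2 made likely. With Spearman's rho in place of Pearson's r, KITLG stayed second and HAS2 moved to rank 16. The genes closest to SSTR3 were OPA3 (r = 0.927), CTD-2267D19.3 (0.896) and LRRC37A16P (0.878), which rest on 1 to 13 SSTR3 counts a library.

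**Figure D4:**
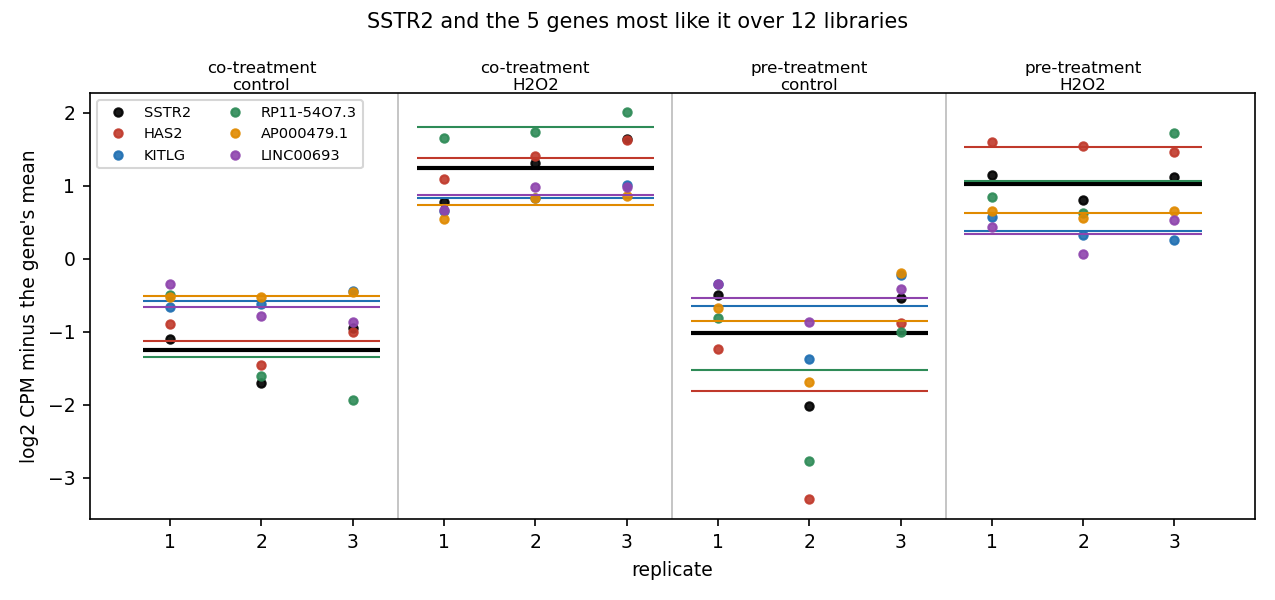
log2 CPM of SSTR2 and the 5 genes most like it, each centred on its own mean over the 12 libraries, by replicate and group, with lines at the group means. In all 6 genes the points of the H2O2 groups lie above those of the control groups of the same experiment, which the choice of the genes made likely. HAS2 and RP11-54O7.3 dip lowest in pre-treatment control replicate 2.

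Markers of other cell types were compared beside these results. The 9 mesenchymal or Schwann-like markers summed to 122 to 196 CPM in co-treatment controls and 123 to 137 CPM with H2O2, and to 149 to 205 CPM in pre-treatment controls and 174 to 230 CPM after H2O2. Of these, COL3A1, a fibrillar collagen gene, rose in pre-treatment over 6 libraries, from 13.3 to 22.2 CPM in controls to 85.2 to 111 CPM (log2FC 2.44, adjusted p = 0.0442 in edgeR's quasi-likelihood test), while its log2FC in co-treatment was 0.05. The COL3A1 call was lost when any 1 library other than control replicate 3 was left out, with log2FC values of 2.25 to 2.62. It was also lost with limma-voom (adjusted p = 0.0797), upper-quartile scaling (0.0521), library size only (0.118) and the replicate number as a block (0.344). DCN was called only without control replicate 3 (2.95, adjusted p = 0.0130). In that comparison the 9 markers had a median log2FC of 0.96, against 0.01 for all genes tested. Of the 9, 6 had an unadjusted p under 0.05, against 40.5% of all genes, and 2 were called, against 11.2% of all genes. Of the others on the list, COL1A1 and COL1A2 stayed at or below 1.61 and 0.250 CPM in every library. PDGFRB, unlike COL3A1 and DCN, was lower after H2O2 in pre-treatment, with 123 to 175 CPM in controls and 80.9 to 105 CPM after H2O2. In co-treatment it had 94.4 to 149 CPM in controls and 85.5 to 101 CPM with H2O2. The 5 immune, endothelial or epithelial markers analysed here summed to 2.32 to 5.89 CPM over all libraries and none was called, and CDH5 had counts only in pre-treatment H2O2 libraries (2 to 4 counts). The 10 noradrenergic markers summed to 3918 to 4264 CPM in co-treatment controls and 2985 to 3679 CPM with H2O2. In pre-treatment they summed to 2854 to 3973 CPM in controls and 3015 to 3618 CPM after H2O2. The co-treatment sums did not overlap, but the share of all genes that separated in this way was not counted. Abundant genes such as STMN2 (807 to 1611 CPM over all libraries) weigh most in these sums. Of 9 noradrenergic markers tested in co-treatment, 0 were called by edgeR's quasi-likelihood test, against 0.598% of all genes. Of the 9, 4 had an unadjusted p under 0.05 (8.15% of all genes did). The median log2FC of the 9 was -0.44, against 0.00 for all genes. In control replicate 3 of the pre-treatment experiment GATA3 had 29.6 CPM, within the 24.7 to 59.5 CPM of the H2O2 libraries. Without that library, the 9 noradrenergic markers tested had a median log2FC of 0.12. DBH and GATA3 were called lower in that comparison (log2FC -1.72 and -1.44), in which 11.2% of all genes were called. Without control replicate 2 as well, DBH (-0.75), GATA3 (-1.30) and DCN (2.20) lost the call, and DBH also without H2O2 replicate 1 (-1.45) or 2 (-1.67), with DESeq2 (-1.74, adjusted p = 0.0516) and with robust estimation (-1.72, adjusted p = 0.106). The part of these markers in the SSTR2 rise was not tested.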

How the data were processed

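RNA depleted of ribosomal RNA was sequenced in paired-end mode by the study with a stranded kit. Per the submitters' processing notes, FastQC 0.11.8, cutadapt 2.10, HISAT2 2.1.0 (build hg19) and HTSeq 0.7.2 were used for quality, trimming, mapping and counting per gene. The authors deposited raw counts for each library, unnormalized, and the strand setting and annotation version are not given in the sources used here. The authors' differential expression tables, which hold log2 fold changes, p-values and FDR values, were not used.

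Groups were taken from the sample titles. The tools were edgeR 4.0.16, DESeq2 1.42.0 and limma 3.58.1, run under R 4.3.3. A gene was tested if the CPM that 5 reads give in the smallest library (0.181 in co-treatment, 0.12 in pre-treatment) was reached in 3 libraries, or in 2 without control replicate 3. Each comparison of H2O2 with control used the quasi-likelihood test of edgeR and TMM factors, with Benjamini-Hochberg adjustment over all genes tested, checked on simulated counts. A planned test of SSTR3 is not reported, because it passed that filter only through the controls. Printed CPM use TMM factors over all 12 libraries. Positions come from GENCODE lifted to hg19, in which 59.5% of symbols matched 1 gene. Genes were named by a rule: the receptors, their ligands, at most 4 called genes of each list (or the most abundant 2 where none was called), nearest neighbours and the genes most like each receptor. TH, COL1A1, COL1A2, PDGFRB and CDH5 were named after their values were seen. The members and lists were chosen with earlier results of these data known.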

Additional observations from a re-analysis of the deposited data

Results flagged for a closer look

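PTPRH, a receptor-type phosphatase on the list of phosphatase effectors, had fitted changes of opposite sign in the 2 experiments and was called in neither. In co-treatment it had 52.6 to 62.2 CPM in controls and 63.1 to 76.6 CPM with H2O2 (log2FC 0.26, adjusted p = 0.656 in edgeR's quasi-likelihood test). In pre-treatment it had 50.4 to 58.3 CPM in controls and 48.8, 48.7 and 17.0 CPM after H2O2 (log2FC -0.46, adjusted p = 0.658 over 6 libraries). The difference between the experiments was not tested. In pre-treatment, H2O2 replicate 3 was far below the other libraries, which had 48.7 CPM or more.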

How the results depend on the processing

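The log2FC of SSTR2 in co-treatment was 2.31 to 2.72 with each library left out and 2.50 to 2.58 over the other alternatives. In pre-treatment over 6 libraries it was 1.56 to 2.16 and 1.89 to 2.05, and the change passed the threshold with the exact test (1.92), DESeq2 (1.89), no low-count filter (1.92), 1 fit over both experiments (1.90) and without control replicate 3 (2.16); adjusted p-values ran from 5.87e-04 to 0.954, and the cause was not tested. Without control replicate 3 it was 1.61 to 3.15 and 1.94 to 2.32, and was called each time.

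Pathway-list genes called were 0 in co-treatment in every setting, where the main fit called only 0.598% of all genes. In pre-treatment over 6 libraries they numbered 1 with the exact test, 2 with DESeq2, 2 without a filter and 0 to 8 with a library left out. Without control replicate 3 they numbered 18 with no threshold on the log2FC, 14 at an absolute log2FC above 0.6 and 4 to 8 with a library left out, with 4 without control replicate 2. With every library kept, the numbers of all genes called went from 3 (1 fit over both experiments) to 443 (no filter) in co-treatment, from 0 to 501 (DESeq2) over 6 pre-treatment libraries and from 2664 to 6871 (no threshold) without control replicate 3. With a library left out they went from 18 (without H2O2 replicate 3; 54 without H2O2 replicate 2, 49 without control replicate 2) to 218 (without control replicate 1), from 0 to 2952 (without control replicate 3) and from 1064 (without control replicate 2; 1784 without H2O2 replicate 1) to 3540. CORT over 6 libraries had a log2FC of -0.02 with upper-quartile scaling, -0.10 with library size only and 0.00 in 1 fit over both experiments, and -0.32 to 0.42 with a library left out. FAM104A over 6 libraries had 0.00 with DESeq2, with RLE scaling and in 1 fit over both experiments, -0.02 with library size only, and -0.07 to 0.22 with a library left out. COL3A1 in co-treatment had -0.12 to 0.38.

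Residuals of libraries with the same replicate number correlated by -0.078, -0.079 and -0.043 in co-treatment and by -0.225, 0.026 and -0.273 in pre-treatment, so the numbers are not taken as pairs. With the replicate number as a block, SSTR2 had a log2FC of 2.50 in co-treatment, 2.05 over 6 pre-treatment libraries and 2.25 without control replicate 3, and all genes called numbered 180, 0 and 3768. Scaling by library size only moved the median log2FC of all genes by -0.22 without control replicate 3, with 11.7% in place of 26.6% of calls higher, and upper-quartile scaling moved it by -0.12 (17%). In co-treatment, library size only gave 71.2% in place of 56.1% higher calls. Counts under 15 a library limit what can be said of SSTR3, and 0 counts limit SSTR1, SSTR4 and SSTR5 to the levels given above.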
